A study of Mus musculus with 2 samples.

Results

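Etv4 and Etv5 are 2 of the PEA3 group of ETS transcription factors, proteins that bind DNA around a GGAA core and act downstream of receptor tyrosine kinases and the Ras-ERK pathway. In mammary epithelium these factors are known for their part in branching and in cell motility, and ETS sites in enhancers often lie beside sites for AP-1, the Fos and Jun dimers that the same pathway switches on. A factor can sit close to a transcription start site (TSS) or at distal elements in introns and between genes, and a chromosome's share of regions therefore depends both on how many genes it carries and on how many distal elements are in use.

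The regions described here are the ChIP-seq regions of both proteins that lie on mouse chromosome 15 (mm10): 912 of 13636 for Etv4 (6.69%) and 590 of 8297 for Etv5 (7.11%), or 1502 of 21933 in all. ChIP-seq sequences the DNA that an antibody brings down with its protein, and a region is a stretch where reads pile up. Both libraries came from EpRas cells, EpH4 mouse mammary epithelial cells transformed with oncogenic Ras, kept in 4% serum and given TGF-β3 at 1 ng/ml for 1.5 h. The antibody to Etv4 was a polyclonal one from rabbit and that to Etv5 a monoclonal one from mouse, with 1 library for each and no replicate. No untreated cells and no input DNA were analysed here, so neither the treatment nor the copy number of the chromosome in this 1 line can be told apart from binding, and the identity of the cells was not checked because expression data were not analysed here. The chromosome was chosen by its number of regions in these same lists, so its density and whatever follows from it are given as a description with no test. The lists hold positions only: the read depth is unknown, every region carries the same score of 1000, and a gene without a region is one where nothing passed the caller's threshold.

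To show what lay under these regions, the DNA common to an Etv4 and an Etv5 region was read from the GRCm38 (mm10) assembly in RefSeq. There were 385 such overlapping pairs on the chromosome. A high-affinity ETS site (CAGGAAGT or CCGGAAGT, on either strand) lay in 41 of them, an AP-1 site (TGACTCA or TGAGTCA, which are each other's complement) in 160, both in 17, and both with starts at most 100 bp apart in 9. An AP-1 site was in 41.5% of pairs with an ETS site (17 of 41, exact 95% interval 26.3 to 57.9%) and in 41.6% of those without (143 of 344, 36.3 to 46.98%), so no excess of the 2 together was seen. The 9 are printed as examples of DNA recovered with both antibodies that holds both kinds of site. All 9 lay outside annotated exons and more than 2 kb from a TSS. Each is the plus strand from 12 bases before the first site to 12 bases after the last, and capitals mark the ETS and AP-1 letters (an ETS site on the minus strand reads ACTTCCTG).

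Myh9 intron, chr15:77800714-77800784: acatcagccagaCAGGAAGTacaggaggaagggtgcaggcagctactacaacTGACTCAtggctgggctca
11.1 kb upstream of Tmem184b, chr15:79414710-79414781: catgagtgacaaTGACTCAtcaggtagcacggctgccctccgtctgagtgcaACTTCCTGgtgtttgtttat
713 kb downstream of the Myc start, chr15:62698918-62698984: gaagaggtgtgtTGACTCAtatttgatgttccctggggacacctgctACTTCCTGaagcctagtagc
293 kb upstream of Ptger4, chr15:5537376-5537443: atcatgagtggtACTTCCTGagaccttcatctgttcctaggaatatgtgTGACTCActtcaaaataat
16.2 kb upstream of Tnfrsf11b, chr15:54294507-54294599: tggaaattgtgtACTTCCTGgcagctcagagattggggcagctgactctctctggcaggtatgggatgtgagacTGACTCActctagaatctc
17.6 kb downstream of the Krt18 start, chr15:102045772-102045891: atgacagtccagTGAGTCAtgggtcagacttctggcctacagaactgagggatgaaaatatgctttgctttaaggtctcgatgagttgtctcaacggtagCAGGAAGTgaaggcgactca
7.62 kb upstream of Ccn4, chr15:66883744-66883867: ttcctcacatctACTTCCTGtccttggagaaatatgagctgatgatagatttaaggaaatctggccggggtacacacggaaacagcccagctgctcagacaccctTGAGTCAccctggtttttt
204 kb upstream of Gm21798, chr15:64613617-64613739: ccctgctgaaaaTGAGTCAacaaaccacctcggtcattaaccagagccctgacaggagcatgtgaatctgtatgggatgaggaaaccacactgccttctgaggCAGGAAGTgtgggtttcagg
Cacng2 intron, chr15:78079238-78079362: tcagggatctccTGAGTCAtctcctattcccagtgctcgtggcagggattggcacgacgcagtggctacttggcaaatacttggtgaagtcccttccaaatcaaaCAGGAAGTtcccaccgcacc

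In the 9 stretches the starts of the 2 sites were 35 to 93 bp apart, and the ETS letters were CAGGAAGT on one strand or the other in all of them. The other octamer, CCGGAAGT, was found mainly in pairs near a TSS. Of the 13 pairs within 2 kb of a TSS with an ETS site, 8 held CCGGAAGT, against 1 of 28 pairs farther away. Stretches of 30 bases from 4 of these promoters show the octamer, again in capitals (ACTTCCGG on the minus strand).

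Nol12 start, chr15:78934927-78934956: aactgctacacCCGGAAGTgttttaaagtc
Mief1 start, chr15:80234080-80234109: gaggtcgtgccCCGGAAGTagaggggccat
Vps13b start, chr15:35371482-35371511: agcccgcacacCCGGAAGTggcgcggaacg
Utp23 start, chr15:51877417-51877446: taagggagtgtACTTCCGGgtcgaaggggc

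The same split was seen over all regions of chromosome 15, shared or not, when the 500 bp around each midpoint were searched. CCGGAAGT lay in 8.78% of the 319 Etv4 regions of chromosome 15 near a TSS (28 regions, exact Clopper-Pearson 95% interval 5.91 to 12.4%) and in 0.337% of the 593 regions farther away (2 regions, 0.0409 to 1.21%). For Etv5 the shares were 6.49% (12 of 185) and 0.494% (2 of 405). On the other autosomes CCGGAAGT was in 7.96% of Etv4 regions near a TSS and 0.849% of those beyond, and in 5.06% and 0.679% of Etv5 regions. CAGGAAGT was there in 5.84% of Etv4 regions near a TSS and 7.50% of those beyond, and in 5.65% and 6.13% of Etv5 regions. For CAGGAAGT on chromosome 15 the intervals overlapped: it was in 4.70% (2.66 to 7.64%) near TSSs and 7.42% (5.44 to 9.83%) beyond them for Etv4, and in 5.41% (2.62 to 9.72%) and 7.16% (4.85 to 10.1%) for Etv5. Of all 201300 tiles of 500 bp on the chromosome, 0.327% held CCGGAAGT and 3.32% CAGGAAGT. The distal shares of CCGGAAGT on chromosome 15 rest on 2 regions in each list, too few to set apart from the share of the tiles. On the other autosomes the distal intervals, 0.659 to 1.08% for Etv4 and 0.471 to 0.947% for Etv5, lay above that share. Promoters without a region were not searched, so what the split owes to promoter sequence was not tested. The intervals cover counting error only, and neighbouring regions are not independent of each other.

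Chromosome 15 was dense in regions for the number of genes it carries. It had 9.06 Etv4 regions per Mb of sequenced DNA against 5.45 on the other autosomes together (1.66 times), and 5.86 Etv5 regions per Mb against 3.29 (1.78 times). The other autosomes ran from 2.32 to 9.76 per Mb for Etv4 and from 1.10 to 6.68 for Etv5, so chromosome 15 was the third of 19 for Etv4 and the second for Etv5, with chromosome 19 at the top of both. Its gene density was ordinary: 7.80 protein-coding genes per Mb placed it at rank 11. Per protein-coding gene it held 1.16 Etv4 regions and 0.752 Etv5 regions, against 0.625 and 0.378 elsewhere, which put it at rank 1 for both. Distal regions and promoters both took part. The ratio to the other autosomes was 1.71 beyond 2 kb of a TSS (95% interval 1.57 to 1.86) and 1.57 within it (1.40 to 1.76) for Etv4, and 1.84 (1.66 to 2.04) and 1.65 (1.42 to 1.92) for Etv5, so the intervals overlapped. Beyond 2 kb of a TSS, it had 5.89 Etv4 regions per Mb, while the highest of the other autosomes, chromosome 11, reached 5.18, and 4.02 Etv5 regions per Mb against at most 3.52. Within 2 kb, it had 6.56 Etv4 regions per 100 TSSs and 3.80 Etv5 regions per 100 TSSs, rank 2 in each case. Regions in which more than 50% of the 36-base words occur more than once in the genome made up 2.85% of the Etv4 and 3.73% of the Etv5 regions, below the 5.45% and 9.17% elsewhere, and without them the ratios were 1.71 and 1.89.

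**Figure D1:**
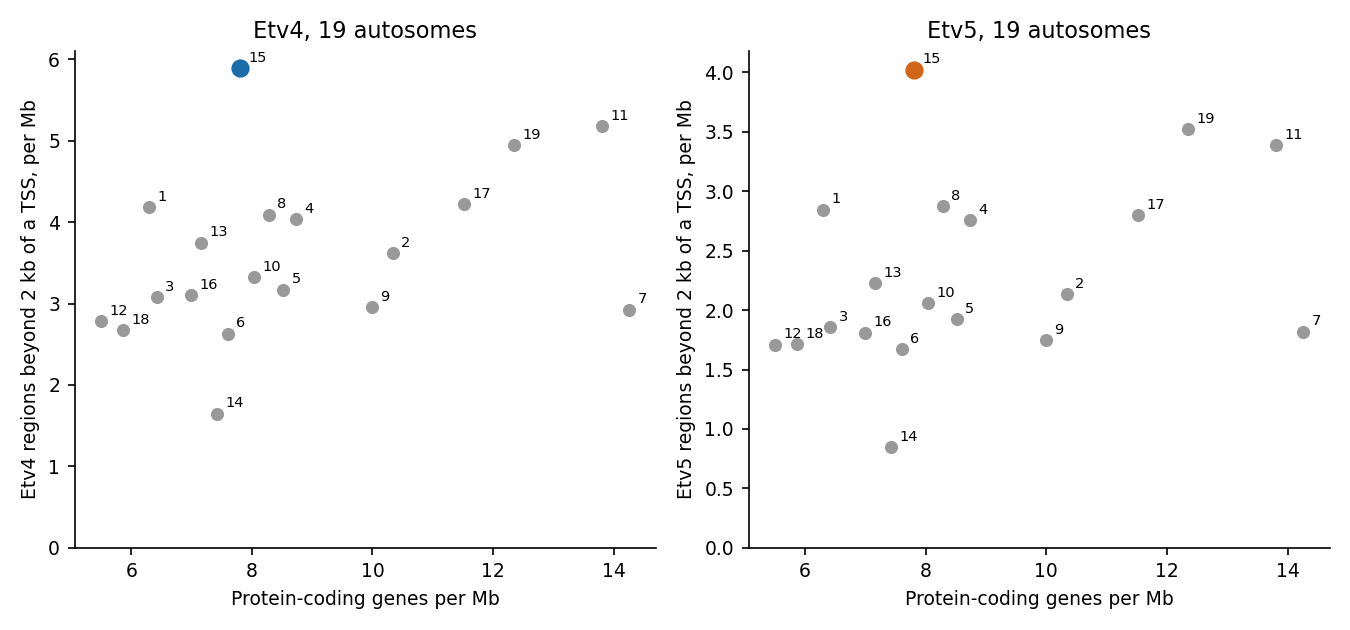
Regions beyond 2 kb of a TSS per Mb (vertical axis) against protein-coding genes per Mb (horizontal axis) for the 19 autosomes, Etv4 on the left and Etv5 on the right, 1 point per chromosome. Chromosome 15 (coloured) stands above every other autosome in both panels, at 5.89 and 4.02 regions per Mb, while 10 of the autosomes have a higher gene density.

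Along the chromosome both lists followed the genes in part. Over the 101 bins of 1 Mb with sequence in at least 50% of their length, the Spearman correlation of the number of regions with the number of genes was 0.61 for Etv4 and 0.59 for Etv5, and that between the lists was 0.90, within the range of the other autosomes each time (0.34 to 0.76, 0.30 to 0.71 and 0.67 to 0.91). These values are descriptions over bins that share 1 library per antibody. The 10 densest bins held 32.9% of the Etv4 and 31.2% of the Etv5 regions, and 12 bins had no Etv4 region and 12 no Etv5 region. When each bin was set against bins of the other autosomes with a like number of genes, chromosome 15 had more regions at every gene number. In bins with no protein-coding gene, the mean was 2.29 Etv4 regions against 0.912 (2.51 times), and in bins with 20 or more it was 20.4 against 11.6 (1.76 times). For Etv5 the corresponding ratios were 2.67 and 1.97. The smallest ratio, 1.37 for Etv4 and 1.55 for Etv5, was that of bins with 5 to 9 genes. Summed over the chromosome, bins of like gene number would give 503.6 Etv4 regions, where 912 were listed (1.81 times), and 305 Etv5 regions, where 590 were listed (1.93 times). Of the 101 bins, 71 and 77 lay above the mean of their class.

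**Figure D2:**
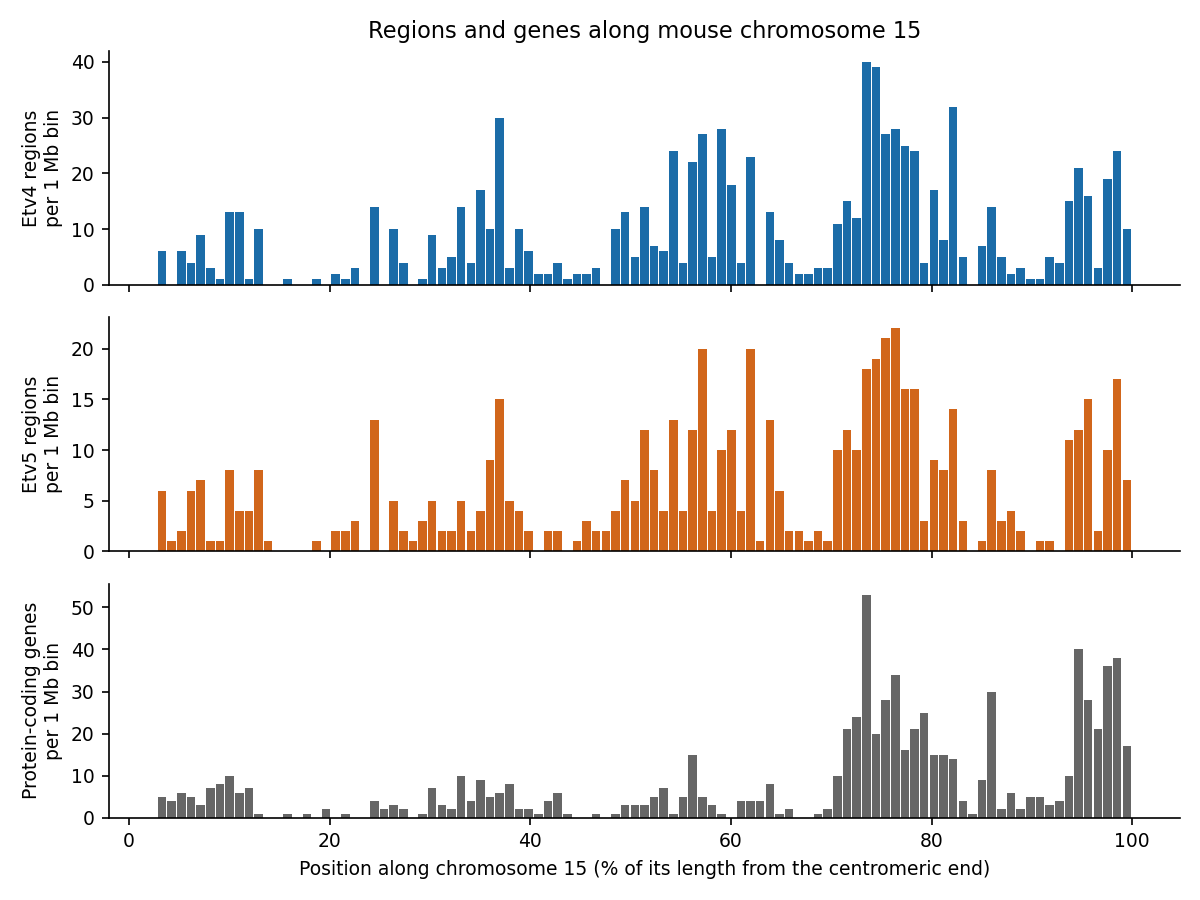
Number of Etv4 regions (top), Etv5 regions (middle) and protein-coding genes (bottom) in each 1 Mb bin along chromosome 15, with the position as a percentage of the chromosome's length from the centromeric end. The gene-rich distal part is dense in both lists, and a second group of dense bins in the middle has few genes.

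The excess was not even. The stretch from 60 to 70 Mb carried 105 Etv4 and 74 Etv5 regions with 27 protein-coding genes, 3.70 and 4.09 times the number from bins of like gene number, and that from 50 to 60 Mb carried 132 and 89, or 2.87 and 3.18 times. Among the 249 autosomal stretches of 10 Mb, these were at rank 2 and 4 for Etv4 and rank 2 and 3 for Etv5. A stretch of chromosome 4 from 80 to 90 Mb was at rank 1 for both (4.95 and 6.66 times). The first 10 Mb of chromosome 19 were at rank 3 for Etv4 (2.95 times) and rank 4 for Etv5 (3.09 times). On chromosome 15, the stretch from 70 to 80 Mb, the richest in genes with 193, held the most regions (180 and 116). That was only 2.13 and 2.34 times the number from its gene classes. In other parts the lists came closer to the other autosomes: the first 10 Mb had 0.83 and 1.14 times, and the stretches from 40 to 50 Mb and from 90 to 100 Mb between 1.06 and 1.36 times. Without the 20 Mb from 50 to 70 Mb, chromosome 15 still had 1.54 times the Etv4 and 1.61 times the Etv5 regions per Mb of the other autosomes.

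**Figure D3:**
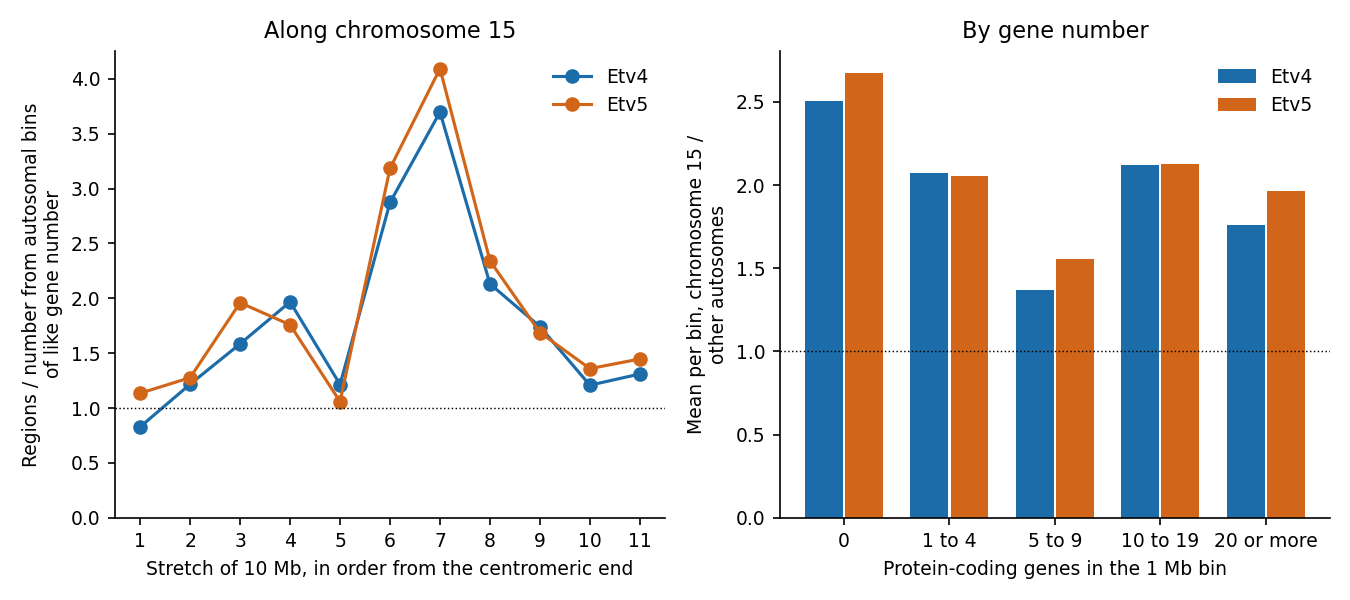
Left, the number of Etv4 and Etv5 regions in each 10 Mb stretch of chromosome 15 divided by the number that 1 Mb bins of like gene number on the other autosomes would give (stretch 1 lacks its first 3 Mb, which have no sequence, and stretch 11 has 4 bins). Right, the mean number per 1 Mb bin on chromosome 15 divided by that on the other autosomes, for 5 classes of gene number; the dotted line marks 1, and the peak is the seventh stretch, at 3.70 and 4.09.

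The regions from 50 to 70 Mb were less often near a TSS than those of the rest of the chromosome. The stretch was picked for having many regions beside few genes, so its location shares follow in part from that choice and are a description. There, 17.7% of the 237 Etv4 regions were close to a TSS, within 2 kb (95% interval 13.1 to 23.2%), against 41.0% of the other 675 (37.3 to 44.9%), and 13.5% of the 163 Etv5 regions against 38.2% of the other 427. More of them lay in introns (42.6% against 29.0% for Etv4, 44.2% against 29.5% for Etv5) and between genes (36.3% against 26.8%, and 41.7% against 31.1%). The AP-1 site was in 46.4% of these Etv4 regions and 44.2% of these Etv5 regions, against 32.3% and 33.5% in the rest. AP-1 sites are more frequent away from TSSs, and among regions beyond 2 kb of a TSS alone the shares were closer, with overlapping intervals: 52.3% (45.1 to 59.5%) against 43.2% (38.3 to 48.2%) for Etv4 and 48.2% (39.7 to 56.8%) against 44.7% (38.6 to 50.9%) for Etv5. The ETS site was not more frequent there, at 8.44% against 9.93% for Etv4 and 7.36% against 9.13% for Etv5. Median region length was 598 bp in both for Etv4 and 522 against 545 bp for Etv5, and mostly multicopy regions made up 2.11% and 2.45%.

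The gene-poor dense bins of this stretch surround 4 loci. The bin from 56 to 57 Mb holds 1 protein-coding gene, Has2, which encodes a hyaluronan synthase of the plasma membrane, and had 24 Etv4 and 13 Etv5 regions. The bin from 59 to 60 Mb, with 5 genes, holds Nsmce2, a SUMO ligase of the SMC5/6 complex, and Trib1, a pseudokinase adaptor, and had 27 and 20. The bins on either side of 62 Mb flank Myc, the growth-promoting transcription factor: that from 61 to 62 Mb, with Myc as its 1 gene, had 28 and 10 regions, and that from 62 to 63 Mb, with no protein-coding gene but the noncoding gene Pvt1, had 18 and 12. The bin from 64 to 65 Mb, with 4 genes including Asap1, a GTPase-activating protein for Arf that acts in adhesion and motility, had 23 and 20.

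Outside these, the densest Etv4 bins were 76 to 77 Mb (40 regions, 53 genes), 77 to 78 Mb (39), 85 to 86 Mb (32) and 38 to 39 Mb (30). The densest Etv5 bins were 79 to 80 Mb (22), 78 to 79 Mb (21), and those of Nsmce2 and Asap1 with 20 each, followed by 77 to 78 Mb (19). With edges moved by 0.5 Mb, the densest bin of both lists was the 1 Mb from 78.5 Mb, with 42 Etv4 and 28 Etv5 regions. Set among all 2403 autosomal bins, 9 of the 51 with 25 or more Etv4 regions (17.6%) and 11 of the 57 with 15 or more Etv5 regions (19.3%) were on chromosome 15, which has 4.203% of the bins.

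Regions less than 25 kb apart were joined into runs to find single loci. The 1502 regions fell into 510 runs, of which 203 were 1 region alone, and the 14 runs with 10 or more held 250 regions (16.6%). The longest run by number crossed Myh9, which encodes the heavy chain of non-muscle myosin IIA, and the neighbouring Apol genes (chr15:77728597-77913705), with 23 Etv4 and 13 Etv5 regions; 12 of the former overlapped an Etv5 region and all 13 of the latter an Etv4 region. The next were the run from Card10, a scaffold of NF-κB signalling, over Cdc42ep1, an effector of the Cdc42 GTPase, to Gga1 (17 and 10), and the run from Krt80 over Krt7 to Krt88 in the keratin cluster (18 and 9). Plec, which encodes the cytolinker plectin, had 13 and 7 in its run, and the 28.8 kb between Klf10, a factor that TGF-β induces, and Azin1 had 9 and 6 without touching a protein-coding gene. A run between Wnt7b, a Wnt ligand, and Ppara, a lipid-sensing nuclear receptor, leaned to Etv4, with 15 regions against 4.

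At several loci the gene and its 10 kb flanks held many Etv4 regions and few or no Etv5 regions. A region counts for every gene within that distance. Within 10 kb of Has2 there were 14 Etv4 regions and 3 Etv5 regions. The Etv4 regions covered 18.8% of the gene's 28.9 kb, whereas the Etv5 regions covered 1.77%, and all 3 Etv5 regions overlapped an Etv4 region. Upstream of the gene, 27.1 kb from its start, both antibodies shared the long region chr15:56720825-56722481 (Etv4 coordinates), which had 2 AP-1 sites around its midpoint. At Myc, 6 Etv4 regions lay within 10 kb and covered 60.7% of the gene, and none overlapped an Etv5 region. The 1 Etv5 region there was 13.5 kb downstream of the start. Farther out the lists met again: around Pvt1 there were 13 Etv4 and 9 Etv5 regions, 6 of each shared. Krt7, a keratin of simple epithelia, and Itga5, the alpha subunit of the fibronectin receptor, each had 5 Etv4 and 0 Etv5 regions within 10 kb, although 11.9 kb upstream of Itga5 both lists had a region. Rpl30, a ribosomal protein gene, had 6 and 0, and Rpl3, another, 8 and 3. Over all protein-coding genes of the chromosome, 284 had more Etv4 than Etv5 regions, 70 had more Etv5 regions and 97 had equal numbers of at least 1. At least 3 more regions were found with Etv4 at 41 genes and with Etv5 at 2, Ptk2, the focal adhesion kinase FAK (3 Etv4 and 6 Etv5 regions), and Rims2, a scaffold of the presynaptic active zone (0 and 3), which was singled out after its values were seen. Asap1 had 9 of each. With 1 library for each antibody these differences in number have no replicate check, and the Etv4 list is the longer. Regions less than 300 bp apart, as at Has2 and Myc, were counted one by one, so 1 broad stretch can add several to a count. At Myc, Etv4 regions ran from -0.159 to 0.727 kb, 0.811 to 1.711 kb and 1.871 to 2.891 kb from the start. Joining regions within 300 bp took the chromosome's lists from 912 to 860 for Etv4 and from 590 to 576 for Etv5. The counts per gene were not redone in that way.

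**Figure D4:**
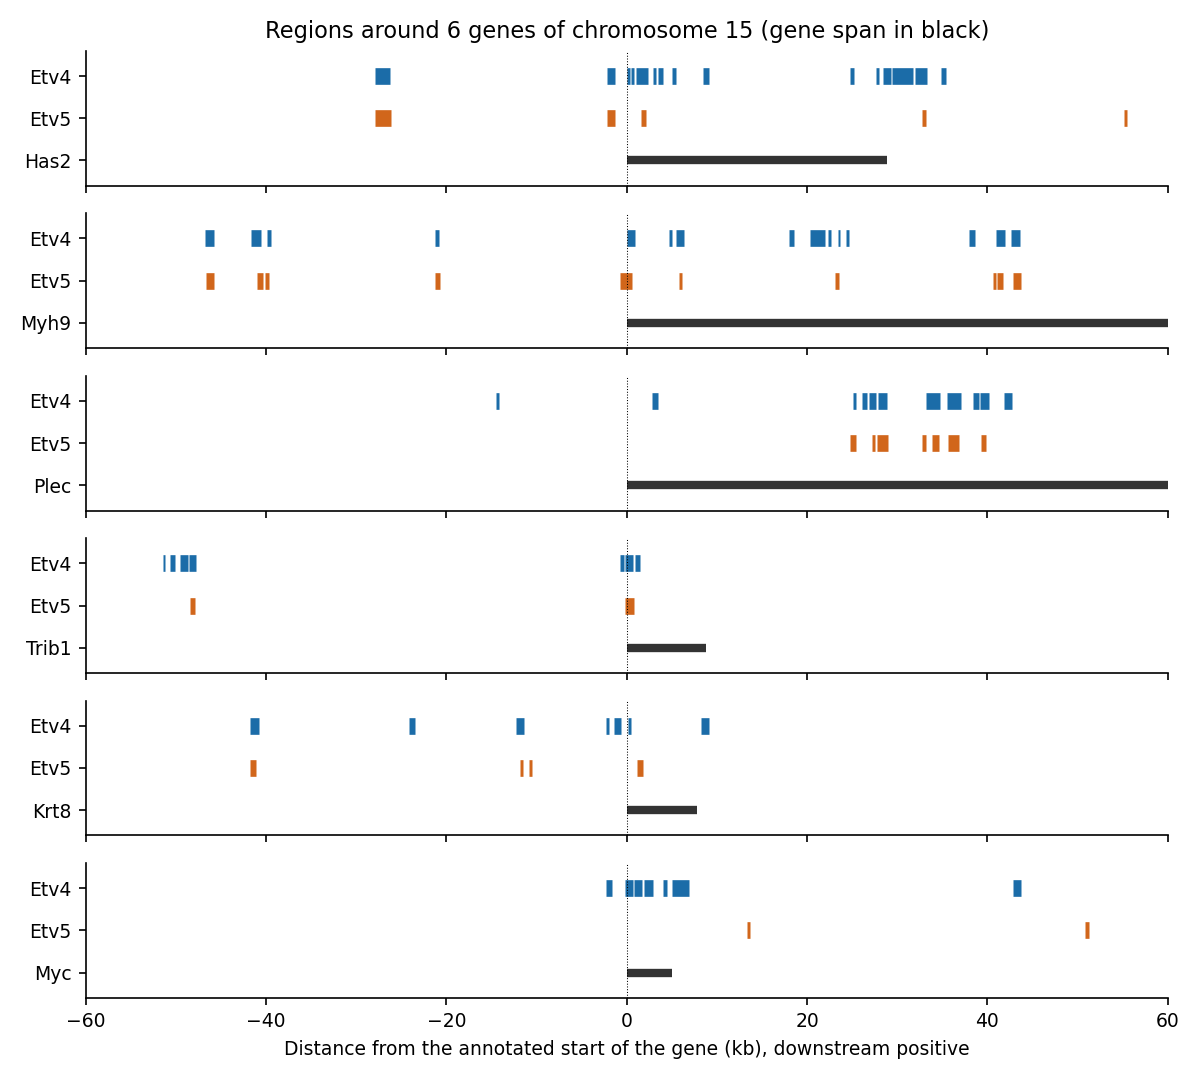
Etv4 regions (blue) and Etv5 regions (orange) by distance in kb from the annotated start of 6 genes, with transcription to the right and the gene's span in black (cut at 60 kb). Etv4 regions follow one another along Has2 and Myc with few Etv5 regions. Within 10 kb of the gene, 3 of 14 Etv4 regions at Has2 and 0 of 6 at Myc overlap an Etv5 region. At Myh9 it is 5 of 14 and at Plec 6 of 12.

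At the gene level, 407 of the 785 protein-coding genes of chromosome 15 (51.8%) had an Etv4 region in the gene or within 10 kb, where 34.7% of all autosomal protein-coding genes did; 288 (36.7%) had an Etv5 region, where 24.1% did; and 244 (31.1%) had both, where 18.3% did. These shares rest on the same density that chose the chromosome. A region within 2 kb of a TSS was found for 245 genes (31.2%) with Etv4 and 155 (19.7%) with Etv5, against 18.3% and 10.8% of the genes on the other autosomes. The genes with the most Etv4 regions were Nsmce2 (15), Has2 and Myh9 (14 each), Plec (12), Matn2 (11), which encodes a matrix adaptor protein, Asap1 (9), and Ext1, a heparan sulfate polymerase, Rpl3, Wdr70 and Cdc42ep1 (8 each). For Etv5 they were Asap1 (9), Nsmce2 (8), Plec and Samd12 (7 each) and Ptk2, Wdr70 and Myh9 (6 each). Long genes have more room for regions, and Nsmce2, Asap1 and Ext1 span 227, 296 and 282 kb.

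The gene lists are read against the shares of all protein-coding genes of the chromosome, 51.8% with an Etv4 region, 36.7% with an Etv5 region and 31.1% with both, and none of them was tested. Of 18 genes of the cytoskeleton and of migration, 14 had an Etv4 region (77.8%), 14 an Etv5 region (77.8%) and 13 both (72.2%). Beside Myh9, Plec and Ptk2, they included Mrtfa, a coactivator of serum response factor (7 Etv4 and 4 Etv5 regions), Myo10, a motor of filopodia (5 and 2), Parvb, an adaptor of integrin-linked kinase (4 and 4), and Lgals1, which encodes galectin-1 (3 and 5). Their median length of 59.9 kb exceeds the 18.7 kb of all genes on the chromosome. In the list of Myc and its neighbours, with a median length of 130 kb, 6 of 8 genes had both, the noncoding Pvt1 among them, and Fam84b and Gsdmc had neither. All 8 lie between 50 and 70 Mb, so this count repeats the density of that stretch. Of 17 adhesion and matrix genes, 11 had an Etv4 region (64.7%) and 8 both (47.1%), where 51.8% and 31.1% of all genes on the chromosome did; their median length is 145 kb. Of the classical cadherin genes among them, Cdh6, Cdh9 and Cdh10 had none within 10 kb. Cdh12 had 1 region of each list and Cdh18 had 2 Etv4 and 3 Etv5 regions. Farther from Cdh6 there were regions: the bin from 13 to 14 Mb, with Cdh6 as its 1 protein-coding gene, had 10 Etv4 and 8 Etv5 regions. Of 12 genes listed under ERK and Ras signalling, 9 had an Etv4 region (75%, against 51.8% of all genes) and 8 an Etv5 region (66.7%, against 36.7%), among them Rapgef3, an exchange factor for Rap GTPases (6 and 3), and Mapk12, a p38 kinase (2 and 2).

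Of 26 transcription factor genes, 17 had an Etv4 region (65.4%, against 51.8% of all genes), 15 an Etv5 region (57.7%, against 36.7%) and 13 both (50%, against 31.1%). Grhl2, a regulator of epithelial junction genes, had 2 Etv4 and 3 Etv5 regions, Maff, a small Maf protein that pairs with other bZIP factors, 1 and 2, Atf4, of the stress response, 4 and 2, the vitamin D receptor gene Vdr 4 and 2, and Tob2, an antiproliferative protein, 4 and 3. Of 13 genes for ligands and Wnt signalling, 7 had an Etv4 region (53.8%) and 5 an Etv5 region (38.5%), shares near those of all genes, with Wnt7b at 5 and 3, Pdgfb, a platelet-derived growth factor, at 3 and 2, and Ccn4, a matricellular target of Wnt signalling, at 2 and 3.

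The remaining lists are set beside the same shares of all genes (51.8%, 36.7% and 31.1%). The 9 Hoxc genes, which pattern the body axis, had no region of either list; their median length is 7.71 kb. Of 14 growth factor and cytokine receptor genes, 2 had an Etv4 region (14.3%) and 4 an Etv5 region (28.6%). Their median length is 32.8 kb, and that of all genes on the chromosome is 18.7 kb. Osmr, the oncostatin M receptor, and Lifr, the receptor for leukaemia inhibitory factor, had 0 and 1 each, and Acvr1b, an activin type I receptor, had none. Of 23 genes in and beside the type II keratin cluster (Krt74 being annotated as a pseudogene), 5 had an Etv4 region (21.7%) and 3 both (13.0%), at a median length of 7.80 kb. Krt8, of simple epithelia, had 4 Etv4 regions and 1 Etv5 region, Krt18, its filament partner, 1 and 0, Krt7 5 and 0, Krt80 5 and 3 and Krt81 2 and 1, while Krt5 and Krt6a of basal and stratified epithelia had none. Of the 15 genes of the Ly6 family, whose median length is 3.81 kb, 4 had an Etv4 region (26.7%) and 6 an Etv5 region (40%), the latter a share near that of all genes.

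Where the regions lay relative to genes differed little from the other autosomes. Of the Etv4 regions, 35.0% (95% interval 31.9 to 38.2%) had their midpoint within 2 kb of a TSS, 32.6% in an intron, 29.3% between genes and 3.18% in an exon; on the other autosomes, 37.0% were near a TSS. Of the Etv5 regions, 31.4% (27.6 to 35.3%) were near a TSS, against 33.7%, with 33.6% in introns, 34.1% between genes and 1.02% in exons. Intergenic regions more than 50 kb from any TSS were the exception: they made up 7.79% of the Etv4 regions (6.13 to 9.72%) against 5.22% elsewhere (4.83 to 5.62%), and 9.15% of the Etv5 regions (6.95 to 11.8%) against 5.77% (5.25 to 6.32%). Median length was 598 bp for Etv4 and 538 bp for Etv5, against 588 and 529 bp, and the median GC content of the 500 bp at the midpoint was 49.6% and 48.6%, against 41.6% in all tiles of the chromosome.

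The lists overlapped (by at least 1 bp) in 374 of the 912 Etv4 regions, 41.0% (37.8 to 44.3%), and in 378 of the 590 Etv5 regions, 64.1% (60.05 to 67.9%). On the other autosomes the shares were 37.4% (36.6 to 38.3%) and 63.1% (61.99 to 64.2%), so for Etv5 the interval included the share elsewhere. For Etv4 the share was higher among intergenic regions, of which 51.3% (45.1 to 57.4%) overlapped an Etv5 region on chromosome 15 and 42.6% (41.1 to 44.2%) elsewhere. In introns it was 45.1% (39.4 to 50.97%) and 41.8%, and near TSSs 31.7% and 30.2%. Exonic Etv4 regions went the other way, with 2 of 29 shared (6.90%, 0.846 to 22.8%) against 29.3% elsewhere (24.4 to 34.6%). Shared Etv4 regions were near a TSS less often (27.01%) than those found in the Etv4 list alone (40.5%), as on the other autosomes (29.8% and 41.2%). Of the 89 Etv4 regions of chromosome 15 among the first 10% by the number the caller gave them, 88.8% were shared (80.3 to 94.5%), against 77.0% elsewhere, and of the 69 Etv5 regions 97.1%, against 97.4%; what orders these numbers is not given in the sources used here.

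**Figure D5:**
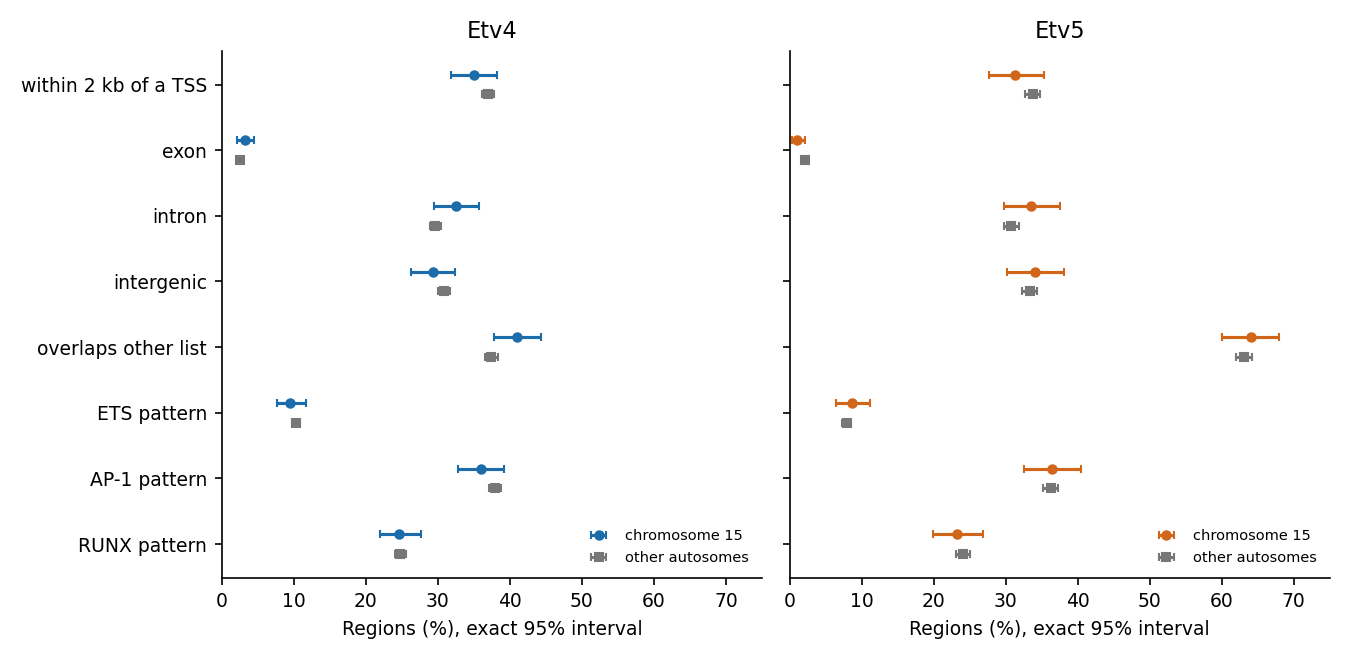
Percentage of Etv4 regions (left) and Etv5 regions (right) in each location class, overlapping the other list, or with a sequence pattern in the 500 bp around the midpoint, on chromosome 15 (coloured circles) and on the other autosomes (grey squares), with exact 95% intervals from counting. The values of chromosome 15 lie within a few percentage points of the others; for overlap of Etv4 regions they are 41.0% and 37.4%.

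The shares of regions with each sequence pattern were within 2 percentage points of those on the other autosomes over all locations. An AP-1 site lay in 35.96% of the Etv4 regions (32.8 to 39.2%) and 36.4% of the Etv5 regions (32.5 to 40.5%), against 37.9% and 36.2% elsewhere and 7.78% of all tiles of the chromosome. Beyond 2 kb of a TSS it lay in 46.2% and 45.9%, against 48.5% and 43.8% elsewhere. Near TSSs it lay in 16.9% and 15.7% (13.0 to 21.5% and 10.8 to 21.7%), against 19.8% and 21.3%. It was in 43.0% of shared Etv4 regions and 31.04% of those in that list alone, against 45.0% and 33.7% elsewhere, and for Etv5 in 41.0% and 28.3% (22.3 to 34.9%), against 43.9% and 23.2%. An ETS site lay in 9.54% of the Etv4 regions (7.71 to 11.6%) and 8.64% of the Etv5 regions (6.50 to 11.2%), against 10.3% and 7.95% elsewhere and 3.63% of the tiles. The same letters in reversed order (TGAAGGAC or TGAAGGCC) were in 4.06% and 3.90% of the regions and 3.43% of the tiles. They keep the base composition but lose the CG pair of CCGGAAGT, for which this control is not matched. A RUNX site (TGTGGTT or TGTGGTC) lay in 24.7% and 23.2%, against 17.0% of the tiles. A match to letters is no proof of binding at that site, and a region without these letters may hold weaker forms of them.

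Both lists also left long stretches empty. The longest on which neither had a region began at 16.2 Mb and ran for 3.30 Mb in the Etv4 list, across Cdh9 and Cdh10, and lay within a gap of 4.93 Mb in the Etv5 list. A second, of 2.54 Mb for Etv4 and 2.67 Mb for Etv5, began in both at the shared region upstream of Cerk and covered Tbc1d22a and Fam19a5.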

How the data were processed

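ChIP-seq libraries of Etv4 and Etv5 from TGF-β3-treated EpRas cells were read from the 2 deposited region lists. Per the labels, the authors aligned the reads with Bowtie to mm10; their methods name 1-sample peak calling in CisGenome, with a 300 bp window and a threshold of 0.1. The deposited BED score is 1000 in every row and was not used as a measure. Other columns hold positions and a region number.

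Regions on chromosome 15 were set beside those of the other autosomes, with GENCODE M21 genes on GRCm38. Location (2 kb of a TSS), overlap (1 bp), 1 Mb bins, 36-base multicopy words and letter patterns were computed in Python 3.11.15 with numpy 2.4.6, pandas 2.3.3 and scipy 1.17.1, and checked on simulated data. Shares have exact 95% Clopper-Pearson intervals. With 1 library per antibody, no test was made. The members, the gene lists and the loci were chosen with earlier results of these data known. Named genes were those with the most regions, those of the densest bins, members of the lists with both kinds of region, and a fixed set (Myc, Krt8, Krt18, Krt5, Itga5, Osmr, Lifr, Acvr1b, Has2, Grhl2, Ptk2, Pdgfb and Maff), with the genes nearest the longest and lowest-numbered regions or in the longest gaps. Genes at the printed sequences and the longest runs, Rpl30, Rims2 and list members named for having no region or only an Etv5 region were chosen after their values were seen. Alternatives changed 1 choice at a time.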

Additional observations from a re-analysis of the deposited data

How the results depend on the processing

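The density ratios stayed above 1 under every alternative run. For Etv4, the ratio of 1.66 became 1.83 in the first 50% of regions by number, 1.86 in the longer 50%, 1.86 per protein-coding gene, 1.81 per TSS, 1.81 against bins of like gene number and 1.54 without 50 to 70 Mb, an alternative added after the data were seen. For Etv5, 1.78 became 1.99 per gene, 1.94 per TSS and 1.61 without 50 to 70 Mb. Bins of 2 Mb held at most 79 Etv4 and 43 Etv5 regions, by construction. The share near a TSS was 30.3%, 48.0% and 29.5% for Etv4 (at 1 kb, at 5 kb and with TSSs of protein-coding genes) and 31.1% in its longer regions, and for Etv5 25.4%, 41.4% and 26.9%. Overlap fell to 31.7% of Etv4 and 48.98% of Etv5 regions when it had to span 50% of both, and to 35.9% and 55.6% for midpoints within 250 bp. With the Etv4 list shortened to the number of Etv5 regions it was 53.4% and 54.6%. With both lists cut to their longer 50% it was 68.2% for Etv5. In 200 bp, ETS sites were found in 4.50% and 3.73% and AP-1 sites in 23.9% and 21.4%; beyond 2 kb of a TSS, AP-1 sites were found in 46.2% and 45.9%. No paired analysis was possible because there is no second library of either antibody and no result comes from a test.

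The depth of the libraries is unknown, input DNA was not analysed here and the caller used 1 sample, so that copy number or open chromatin along chromosome 15 cannot be told apart from binding. Intervals cover counting error only. A list holds what passed 1 threshold, so its regions are not a complete record of binding.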

Other observations

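Of the 5 regions with the lowest numbers in each list, 4 were at the same places in both; the other was 4.05 kb upstream of Nol12 for Etv4 and 4.05 kb upstream of Card10 for Etv5. The Etv4 region numbered 43 and the Etv5 region numbered 43 both lay 8.87 kb upstream of Cerk, which encodes ceramide kinase, at chr15:86194490-86195539 and chr15:86194493-86195524. Those upstream of Fbln1, an extracellular matrix protein, had the same coordinates in both lists, chr15:85177462-85178073. Those beside Csmd3 and Ly6c2 were also shared. Multicopy words made up 50.6% of the Etv4 region at Cerk, 25.0% at Csmd3, 36.4% at Ly6c2 and 0% at Fbln1; their part in these calls was not tested.

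The longest Etv4 region on the chromosome, 3602 bp (chr15:78924960-78928561), covered the start of Lgals1 and was followed by another of 2653 bp toward Nol12, while the longest Etv5 region was the one beside Ly6c2 (1981 bp). At 1762 bp, 1682 bp and 1679 bp, the next Etv5 regions were the one 27.1 kb upstream of Has2 and those 302 kb downstream and 453 kb upstream of the Myc start, all shared with Etv4.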
